A study of Arabidopsis thaliana with 12 samples.

Results

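Leaves of the anac017 line were compared with leaves of the anac090 line, 3 libraries of each and so 6 of the 12 libraries of the series, over 16817 of the 33197 genes with an identifier. The genes were those with a mean abundance of at least 1 over all 12 libraries. Both lines are Arabidopsis thaliana of the Columbia ecotype and are described as knockouts from the SALK, SAIL or GABI-KAT collections of T-DNA insertions, with no allele named. Every leaf was 18 days old, and no agent or treatment is given. The 3 wild type and 3 anac082 libraries of the same age entered the filter and the estimate of spread, and the 2 lines compared here were set against each other and not against wild type. The study concerned the timing of leaf senescence by NAC factors.

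NAC proteins are plant transcription factors with a shared DNA-binding domain. ANAC017 is anchored in the membrane of the endoplasmic reticulum and, when mitochondria fail, is cleaved and moves to the nucleus, where it activates the genes of mitochondrial retrograde signalling. ANAC090 has been studied as a brake on senescence and on salicylic acid (SA), the hormone of defence against pathogens that feed on living tissue. ANAC082 has been studied in the response of the nucleolus to disturbed ribosome assembly.

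Values below are log2(abundance + 1) for each library, in replicate order. A difference is anac017 minus anac090 on that scale, given with its standard error, and a gene was called when its limma p-value, adjusted by Benjamini-Hochberg over all genes tested, was below 0.05. Where the groups are given as means, the error is the SD over 3 libraries. In whole leaves, fewer cells of a type and less RNA per cell cannot be told apart.

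The targeted genes went against 1 of the 2 labels. ANAC017 had 6.68, 6.84 and 6.72 in the libraries labelled anac017, against 6.17, 5.79 and 6.42 in anac090, so the transcript was not low in the line named for it. That difference of 0.62 ± 0.14 missed the threshold (adjusted p = 0.0557) and passed it without anac090 replicate 3 (adjusted p = 0.0133). ANAC090 had 3.43, 1.96 and 2.53 in the libraries labelled anac017, against 1.22, 0.90 and 0.72 in anac090, and the difference was 1.70 ± 0.30 (adjusted p = 0.0190), or 3.24-fold. The 2 groups did not overlap, and the transcript was lowest in the line named for it. This call was lost without anac017 replicate 3 (adjusted p = 0.0651) or anac090 replicate 3 (adjusted p = 0.0574). ANAC082, targeted in neither line, had 5.99, 6.0 and 6.19 in the libraries labelled anac017, against 5.32, 5.2 and 5.61 in anac090, and was higher by 0.69 ± 0.11 (adjusted p = 0.0119, and 0.0599 without anac017 replicate 3). The table gives 1 value per gene, so it does not say which part of each transcript was measured. Because of the ANAC017 values, every direction below is that of libraries labelled anac017.

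Of the 3 other tested genes within 10 kb of ANAC017, 1 was called. SERK2, a co-receptor of brassinosteroid and immune receptors, had 3.85, 3.99 and 3.72 in the libraries labelled anac017, against 2.86, 3.06 and 2.58 in anac090, and was higher by 1.02 ± 0.14 (adjusted p = 0.0056). Its locus overlaps another entry of the table, so their reads may be shared. Within 100 kb of ANAC017 2 of 23 tested genes were called, SERK2 and the decay factor UPF3, and within 500 kb 6 of 93, beside 1.48% of all genes. Around ANAC090 the counts were 0 of 3 within 10 kb, 0 of 32 within 100 kb and 2 of 162 within 500 kb. The part of the insertion sites in these values was not tested.

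The anac090 libraries were less alike than those labelled anac017. Along the leading principal component (51% of the variance of 12 libraries), those labelled anac017 lay at 9.31, 9.97 and 21.6, against 15.9, -12.7 and 74.1 for anac090. Among the anac090 libraries, replicate 3 had high defence transcripts and the lowest averages of growth (3.44) and chlorophyll synthesis genes (6.72). Replicate 2 had high organelle transcripts and the highest average of growth genes (4.90). Which genes set these libraries apart along the component was not tested. Transcripts encoded in plastids averaged 2.39, 2.46 and 2.73 over 63 tested entries in the libraries labelled anac017, against 2.78, 5.07 and 2.44 in anac090. For 26 entries encoded in mitochondria the averages were 1.90, 1.94 and 1.96 in the libraries labelled anac017, against 2.41, 3.62 and 2.19 in anac090. Mesophyll markers were high: the 4 averaged between 10.40 and 10.58 in the libraries labelled anac017 and between 10.02 and 10.52 in anac090. None of 5 cell division or 6 flower markers passed the filter, while 1 of 5 root markers did. That root marker lay between 3.67 and 3.68 in the libraries labelled anac017 and between 3.80 and 4.12 in anac090.

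The difference between the lines lay mostly in genes that were higher in the libraries labelled anac017. There were 220 such genes, 1.31% of those tested, and 29 lower genes, 0.172%, so 1.48% were called in all. The groups did not overlap in any of the 249. By comparison, 16.4% of all genes had groups that did not overlap, 9.53% with anac017 higher and 6.89% with anac017 lower. Most differences were small, with a median of 0.75 for the higher and -0.80 for the lower genes, and at least 2-fold in 42 and 11 of them. At an unadjusted p below 0.05 there were 1347 higher and 794 lower genes. Leaving out replicate 1, 2 or 3 of anac017 left 71, 85 or 97 higher genes and 9, 7 or 6 lower genes, while 59 of the 220 and 4 of the 29 were called whichever library was left out. The lower count also moved to 17, 18 or 19 without wild type replicate 1, anac090 replicate 1 or anac082 replicate 3, to 50 without anac090 replicate 2, and to 66 with the replicate number as a block. A fit of the 6 libraries alone called 12 higher genes and 1 lower gene. Of 88 called genes followed singly, 78 lost their call in that fit and 10 kept it. Each fit with 1 library left out still drew on wild type and anac082 libraries for its spread.

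**Figure D1:**
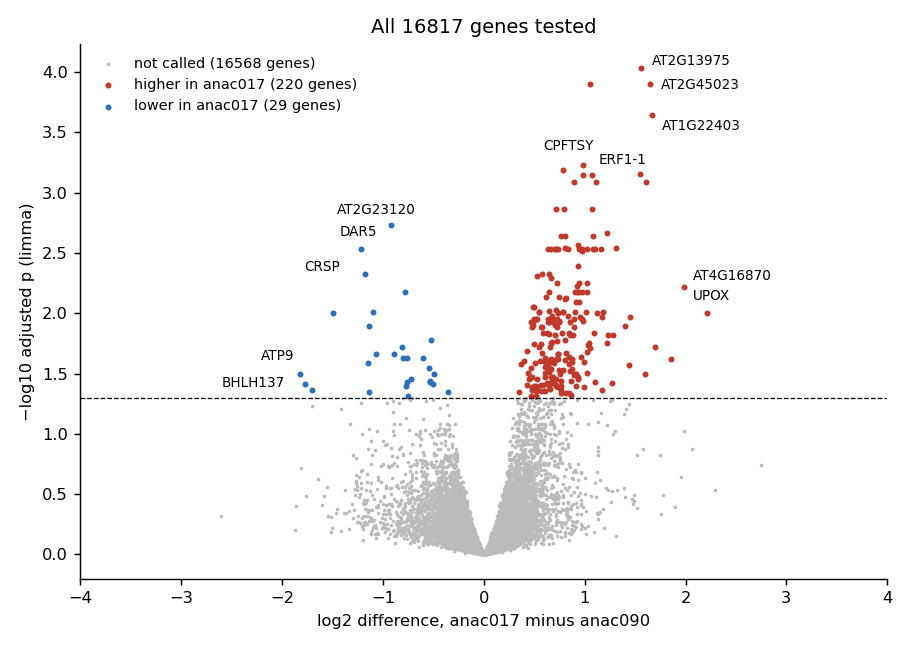
Log2 difference (anac017 minus anac090, x axis) against −log10 of the adjusted p (y axis) for each of 16817 genes, with the 220 higher in anac017 in red, the 29 lower in blue and a dashed line at an adjusted p of 0.05. UPOX lies farthest to the right among the called genes, while AT2G13975 lies highest.

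A few factors of nonsense-mediated decay were more abundant in the libraries labelled anac017. This decay pathway removes transcripts whose stop codon lies in the wrong context, such as those with a premature stop or a translated upstream reading frame. The helicase UPF1 and its partners UPF2 and UPF3 recognise the terminating ribosome. Transcripts of UPF3 and eRF1-1 are known to be substrates of the pathway themselves in Arabidopsis. Of 15 genes in 3 groups assembled after their values were seen, 4 were called higher and none lower, beside 1.31% and 0.172% of all genes. UPF3, 1 of the 4, lies within 100 kb of ANAC017.

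UPF1 had 5.63, 5.68 and 5.62 in the libraries labelled anac017, against 5.25, 5.22 and 5.06 in anac090, and was higher by 0.47 ± 0.07 (adjusted p = 0.0119). UPF3 had 5.25, 5.29 and 5.27 in the libraries labelled anac017, against 4.83, 4.55 and 4.91 in anac090, and was higher by 0.51 ± 0.09 (adjusted p = 0.0260). Neither group overlapped the other for either gene. UPF2 differed by 0.01 (95% interval -0.21 to 0.22) and was not called.

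Among the factors that release the finished peptide, 1 of 4 was called. ERF1-1 encodes 1 of the 3 copies of release factor eRF1, and had 6.13, 6.23 and 6.31 in the libraries labelled anac017, against 5.16, 5.07 and 5.24 in anac090, and the difference was 1.07 ± 0.10 (adjusted p = 7.12e-04), or 2.1-fold. The other copies were not called, with differences of -0.02 (95% interval -0.27 to 0.23) for ERF1-2 and -0.07 (-0.31 to 0.18) for ERF1-3. The GTPase eRF3, partner of eRF1, differed by 0.20 (-0.03 to 0.43). The contrast between the eRF1 copies was not itself tested.

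The exon junction complex marks spliced junctions and helps decay to find misplaced stops. In a group of its members, its disassembly factor and the cap-binding proteins, 1 of 8 genes was called. AT1G15280, a gene of the complex member Barentsz, had 5.32, 5.39 and 5.36 in the libraries labelled anac017, against 4.83, 4.86 and 4.80 in anac090, and was higher by 0.52 ± 0.08 (adjusted p = 0.0112). The groups did not overlap for AT1G80000, the other Barentsz gene, with 5.14, 5.16 and 5.11 in the libraries labelled anac017, against 4.75, 4.65 and 4.77 in anac090. Its difference of 0.41 ± 0.09 missed the threshold (adjusted p = 0.0509) and passed it with the replicate number as a block (adjusted p = 0.0376). The core members EIF4A3, MAGO and Y14, the disassembly factor PYM and the cap-binding proteins CBP20 and CBP80 were not called, with differences between -0.10 and 0.04. ERF1-1 was called whichever of the 12 libraries was left out. UPF1 was lost without replicate 1, 2 or 3 of anac017 (adjusted p = 0.0584, 0.0711 and 0.0526), as was AT1G15280 (0.0505, 0.0631 and 0.0526). UPF3 was lost without the same 3 libraries (0.0981, 0.108 and 0.0957) or anac090 replicate 1 (0.0545).

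**Figure D2:**
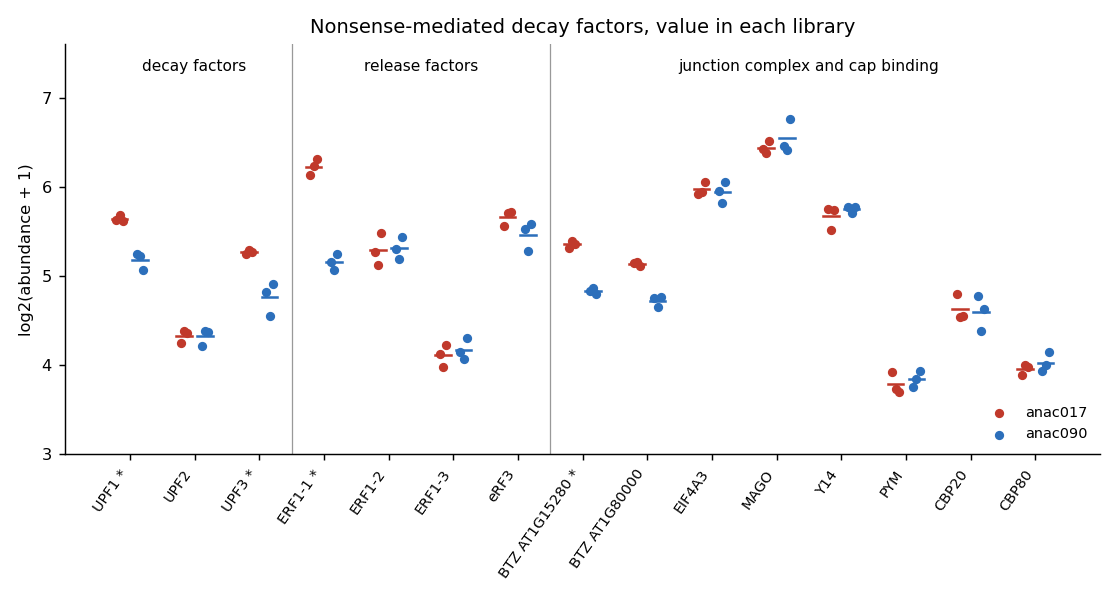
Value of 15 genes of nonsense-mediated decay in each library (y axis, log2(abundance + 1)), with the anac017 libraries in red to the left of anac090 in blue and bars at the group means. Stars mark called genes: ERF1-1 shows the widest gap, and UPF2 and the other eRF1 copies overlap.

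Noncoding RNAs made up 25 of the 220 higher genes. Among the 205 tested entries that RefSeq types as noncoding or antisense RNA, 25 (12.2%) were higher and 1 was lower, beside 1.31% and 0.172% of all genes, and the median difference was 0.18, beside -0.0021 over all genes. This class was picked after the values were seen. For AT1G22403 the values were 4.02, 3.66 and 3.77 in the libraries labelled anac017, against 2.08, 2.08 and 2.30 in anac090, and the difference was 1.66 ± 0.13 (adjusted p = 2.28e-04). AT2G45023 had 4.30, 4.29 and 4.27 in the libraries labelled anac017, against 2.76, 2.58 and 2.57 in anac090, and the difference was 1.65 ± 0.12 (adjusted p = 1.25e-04). In both, every library labelled anac017 lay well above every anac090 library.

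AT1G69252, one of the more abundant noncoding entries, had 7.43, 7.42 and 7.45 in the libraries labelled anac017, against 5.74, 6.20 and 5.54 in anac090, and the difference was 1.61 ± 0.15 (adjusted p = 8.20e-04). AT3G26612 was higher by 1.31 ± 0.15 and AT3G27990 by 1.1 ± 0.13 (adjusted p = 0.0029 for both), and these 5 entries were called whichever library was left out. AT5G24735 averaged 7.35 ± 0.07 in the libraries labelled anac017 and 6.45 ± 0.15 in anac090 (adjusted p = 0.0097, and 0.0539 without anac017 replicate 1). The lower entry, AT2G14878, had 5.89, 5.89 and 5.66 in the libraries labelled anac017, against 6.31, 6.23 and 6.51 in anac090 (difference -0.54 ± 0.11, adjusted p = 0.0366, above 0.05 in 10 of the 12 leave-one-out fits and at most 0.149). Of the 25 higher entries 14 lie over another entry of the table, AT3G27990 among them, so reads of 2 genes may not be told apart there. Among the 72 tested noncoding entries with no such overlap, 11 (15.3%) were higher. The count of 25 fell to 7, 10 and 12 without replicates 1, 2 and 3 of anac017, and to 15 and 12 without replicates 1 and 3 of anac090.

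Transposable elements showed 8 higher entries of 85 typed as pseudogenes (9.41%) and no lower one, beside 1.31% and 0.172% of all genes, a class also picked after the values were seen. The 8 became 3 without replicate 1 or 2 of anac017 and 5 without replicate 3. AT2G13975 had 5.54, 5.31 and 5.37 in the libraries labelled anac017, against 3.96, 3.83 and 3.75 in anac090, and its difference of 1.56 ± 0.10 had the smallest adjusted p of all genes tested (9.33e-05). Its neighbour AT2G13970 was higher by 0.93 ± 0.12 (adjusted p = 0.0041). AT4G16870 had 3.64, 4.14 and 4.19 in the libraries labelled anac017, against 1.67, 2.17 and 2.18 in anac090, a 3.95-fold difference (1.98 ± 0.27, adjusted p = 0.0061). That element lies 68 bases from RPP4, an immune receptor gene that was lower in the same libraries and is described with the lower genes. SADHU1-1, a retroelement that overlaps another entry, averaged 7.58 ± 0.09 in the libraries labelled anac017 and 6.89 ± 0.24 in anac090 (adjusted p = 0.0341, above 0.05 in 8 of 12 leave-one-out fits and at most 0.141).

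Transcripts with a conserved upstream reading frame included 6 higher entries. Such a frame lies before the main coding sequence, is translated first, and can stall ribosomes or mark the transcript for decay. Of 34 tested entries named for a conserved upstream peptide, 6 (17.65%) were higher and none lower, beside 1.31% and 0.172% of all genes. This class, too, was picked after the values were seen. The median difference was 0.30, and 0.18 without anac090 replicate 2. In 13 the groups did not overlap with anac017 higher, beside 9.53% of all genes. The entries span the whole transcript of the host gene, so the frame and its host cannot be told apart. The count of 6 became 2 without replicate 1 or 2 of anac017, 3 without its replicate 3 and 3 without replicate 1 or 3 of anac090.

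CPuORF19, whose entry spans AT1G36730, had 6.96, 6.88 and 6.90 in the libraries labelled anac017, against 6.26, 6.07 and 6.01 in anac090, and the difference was 0.80 ± 0.09 (adjusted p = 0.0023). CPuORF14, over AT5G52550, had 5.24, 5.30 and 5.17 in the libraries labelled anac017, against 4.55, 4.50 and 4.79 in anac090 (0.62 ± 0.09, adjusted p = 0.0074). Both calls held whichever library was left out. CPUORF47 had the largest difference of the group, 1.44 ± 0.27, and its entry overlaps that of the gene LUL1. Its values were 4.38, 4.62 and 3.94 in the libraries labelled anac017, against 3.11, 3.26 and 2.26 in anac090 (adjusted p = 0.0268, and 0.113 and 0.121 without anac017 replicates 1 and 2). CPuORF1 lies over bZIP2, a factor whose upstream frame senses sucrose, and averaged 6.12 ± 0.08 in the libraries labelled anac017 and 5.46 ± 0.20 in anac090 (adjusted p = 0.0244).

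CPuORF39 lies over SAC51, a bHLH factor of thermospermine-dependent stem growth, and also overlaps the entry of the gene NPH3. It averaged 5.38 ± 0.12 in the libraries labelled anac017 and 4.61 ± 0.21 in anac090 (adjusted p = 0.0399). CPuORF15, over the ankyrin-repeat gene ANK6, averaged 6.37 ± 0.04 in the libraries labelled anac017 and 5.91 ± 0.14 in anac090 (adjusted p = 0.0335). These 3 calls were less steady: CPuORF39 was above 0.05 in 10 and CPuORF15 in 9 of the 12 leave-one-out fits, at most 0.162, and CPuORF1 without any replicate of anac017 (0.0719, 0.107 and 0.0981) or replicate 1 or 3 of anac090 (0.0828 and 0.0654). BHLH144, a relative of SAC51 with a conserved upstream frame of its own, had 5.2, 5.08 and 5.13 in the libraries labelled anac017, against 4.01, 3.67 and 3.92 in anac090 (1.27 ± 0.26, adjusted p = 0.0376, above 0.05 in 9 of 12 leave-one-out fits, at most 0.141). The entry of its upstream frame, CPuORF35, overlaps it and was not called (0.81 ± 0.74, adjusted p = 0.703). SAMDC2, a polyamine synthesis enzyme whose upstream frame senses polyamines, overlaps another entry. It averaged 6.53 ± 0.03 in the libraries labelled anac017 and 5.86 ± 0.12 in anac090 (adjusted p = 0.0177, and 0.0823, 0.0715 and 0.0783 without replicates 1, 2 and 3 of anac017).

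**Figure D3:**
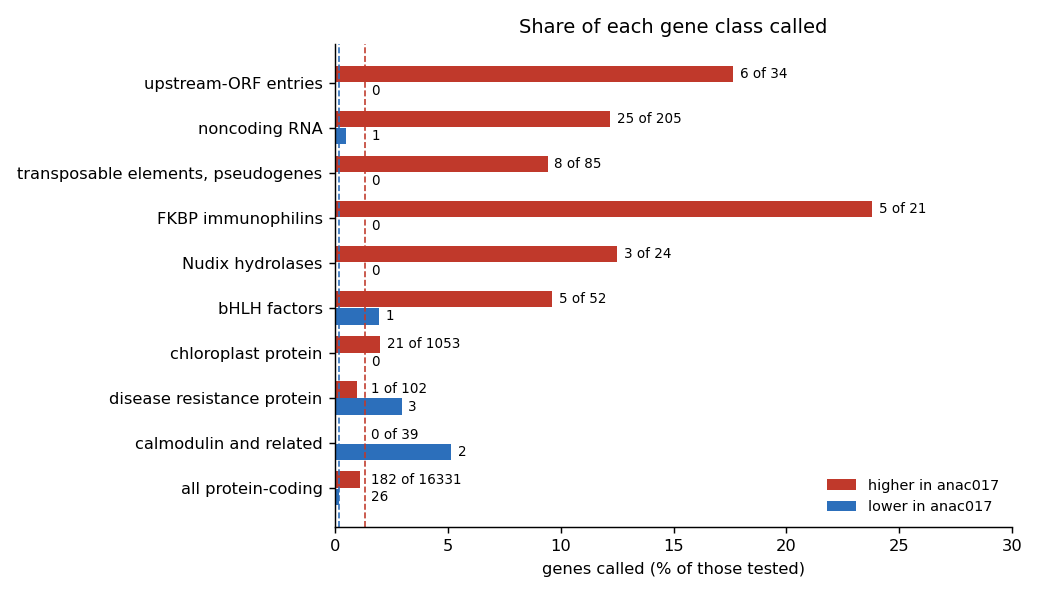
Share of tested genes called higher (red) or lower (blue) in anac017 for 10 gene classes, all picked after the values were seen. The number called stands beside each bar, and dashed lines mark the shares over all genes, 1.31% higher and 0.172% lower. The bars of upstream-frame, noncoding, transposable element, FKBP, Nudix and bHLH entries reach farthest past the red line.

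Nuclear genes for chloroplast proteins, a class picked after the values were seen, gave 21 higher of 1053 (1.99%) and none lower. The higher share was near the 1.31% of all genes. The 21 became 10, 11 and 13 without replicates 1, 2 and 3 of anac017. RNR1, an exoribonuclease that trims plastid ribosomal and messenger RNA, had 4.90, 4.80 and 4.71 in the libraries labelled anac017, against 3.92, 3.87 and 3.40 in anac090, and the difference was 1.08 ± 0.13 (adjusted p = 0.0029). CPFTSY, the receptor that delivers light-harvesting proteins to the thylakoid, had 5.84, 5.74 and 5.82 in the libraries labelled anac017, against 4.73, 4.78 and 4.93 in anac090, and the difference was 0.99 ± 0.08 (adjusted p = 5.88e-04). Neither gene overlapped between the lines, and both were called whichever library was left out.

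The thylakoidal processing peptidase TPP1 averaged 7.93 ± 0.03 in the libraries labelled anac017 and 7.28 ± 0.15 in anac090 (adjusted p = 0.0048). The chloroplast glutathione reductase EMB2360, which keeps glutathione reduced, averaged 7.57 ± 0.12 in the libraries labelled anac017 and 6.60 ± 0.25 in anac090 (adjusted p = 0.0030). The S-sulfocysteine synthase CS26 and the pentatricopeptide repeat proteins EMB1417 and EMB2453 were higher by 0.94, 1.02 and 0.95 (adjusted p between 0.0029 and 0.0081). All 5 were called whichever library was left out, though EMB1417 overlaps another entry. PNP1, the plastid polynucleotide phosphorylase, was higher by 0.71 ± 0.12 (adjusted p = 0.0153), but not without anac017 replicate 1 (0.0834) or 2 (0.0795). PFC1, a dimethylase of plastid ribosomal RNA that overlaps another entry, was higher by 1.12 ± 0.17 (adjusted p = 0.0099, and 0.0539 without anac017 replicate 1). PSBP2, a relative of the oxygen-evolving protein PsbP, was higher by 1.19 ± 0.18 (0.0097, and 0.0519 without anac017 replicate 2).

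None of the 63 entries encoded in the plastid genome was called. All 63 had a negative difference, with a median of -0.85, which was -0.09 without anac090 replicate 2 and -1.44 without anac090 replicate 3. Without anac090 replicate 2 RNR1 was higher by 1.15 and CPFTSY by 0.97, both still called. The nuclear photosynthesis list had 0 of 29 called and a median of 0.09, which was 0.00 without anac090 replicate 3.

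Other genes with large rises had no common class. AT4G09040, an RNA-binding protein, had 6.53, 6.29 and 6.30 in the libraries labelled anac017, against 5.11, 5.44 and 4.37 in anac090 (1.4 ± 0.23, adjusted p = 0.0127, and 0.0716, 0.0529 and 0.0526 without replicates 1, 2 and 3 of anac017). CAT3, a cationic amino acid transporter, averaged 5.46 ± 0.07 in the libraries labelled anac017 and 4.24 ± 0.32 in anac090 (adjusted p = 0.0022). AT4G32240, which encodes a protein of unknown function, averaged 6.87 ± 0.08 in the libraries labelled anac017 and 5.32 ± 0.21 in anac090 (adjusted p = 7.03e-04). The radical SAM protein gene AT2G39670 and the unannotated AT1G45165, both over another entry, were higher by 1.07 ± 0.11 (adjusted p = 0.0014) and 1.45 ± 0.23 (0.0108, and 0.0540 without anac017 replicate 1).

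By family, FKBP immunophilins had 5 higher of 21, Nudix hydrolases 3 of 24 and bHLH factors 5 of 52, with 1 bHLH gene lower, beside 1.31% higher and 0.172% lower over all genes. FKBP20-1, a peptidyl-prolyl isomerase, averaged 5.96 ± 0.07 in the libraries labelled anac017 and 5.07 ± 0.15 in anac090 (adjusted p = 8.20e-04). NUDT23, a chloroplast Nudix hydrolase that cleaves flavin adenine dinucleotide, averaged 5.49 ± 0.06 in the libraries labelled anac017 and 4.77 ± 0.03 in anac090 (adjusted p = 0.0014). Both calls held whichever library was left out. FKBP20-1 overlaps another entry. These families were picked after the values were seen, and the FKBP count lay between 1 and 4 and the bHLH count between 0 and 5 when a library was left out, lowest without anac017 replicate 1.

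UPOX, a mitochondrial protein used as a marker of oxidative stress, had the largest rise of all called genes. UPOX had 4.34, 4.42 and 3.83 in the libraries labelled anac017, against 2.44, 2.27 and 1.25 in anac090, and the difference was 2.21 ± 0.34 (adjusted p = 0.0099), or 4.64-fold. The lowest library labelled anac017 was above the highest of anac090. The gene averaged 2.41 ± 0.19 in wild type, which was not part of the comparison. The call was lost without anac017 replicate 1 (adjusted p = 0.0539) or 2 (0.0535).

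UPOX belongs to a list of 16 genes of the mitochondrial dysfunction response, which ANAC017 and related factors activate through a motif that reads CTTG, any 5 bases, then CAAG or CACG. Both forms were searched on both strands in the 300 bases before the annotated start of each gene, in the RefSeq sequence of the TAIR10.1 build. The form that ends in CAAG reads the same on both strands. Either form was present in 1.37% of all protein-coding genes and 0.9% of those tested, in 1 of the 182 protein-coding genes called higher (0.549%), and in 4 of the 16 list members. Of these HSP23.5, a mitochondrial small heat shock protein, did not pass the filter on low values. The windows of the 3 tested members are shown because they set the called gene beside members of the list that carry the motif, here in the CAAG form and in capitals, each ending at the base before the gene's start. UPOX is on the plus strand (chr2:9254078-9254377), NDB2 on the plus strand (chr4:2572127-2572426) and CYP81D8 on the minus strand (chr4:17571744-17572043).
UPOX: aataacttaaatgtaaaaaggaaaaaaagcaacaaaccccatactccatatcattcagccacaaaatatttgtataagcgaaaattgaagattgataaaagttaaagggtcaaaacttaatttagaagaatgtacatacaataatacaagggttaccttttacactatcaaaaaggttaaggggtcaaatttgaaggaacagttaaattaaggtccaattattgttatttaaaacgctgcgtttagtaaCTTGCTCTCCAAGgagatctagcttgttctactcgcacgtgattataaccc
NDB2: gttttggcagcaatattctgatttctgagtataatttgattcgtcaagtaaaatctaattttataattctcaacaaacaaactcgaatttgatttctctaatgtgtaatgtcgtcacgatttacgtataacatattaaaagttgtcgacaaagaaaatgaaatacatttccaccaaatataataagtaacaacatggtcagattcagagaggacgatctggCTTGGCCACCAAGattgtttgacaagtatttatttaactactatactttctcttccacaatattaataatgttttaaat
CYP81D8: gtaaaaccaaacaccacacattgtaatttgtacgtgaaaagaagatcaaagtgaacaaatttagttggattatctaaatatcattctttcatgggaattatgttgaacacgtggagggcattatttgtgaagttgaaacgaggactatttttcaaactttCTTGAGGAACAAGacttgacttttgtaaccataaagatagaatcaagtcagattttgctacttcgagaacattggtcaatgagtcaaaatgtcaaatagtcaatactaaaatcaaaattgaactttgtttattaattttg
The motif begins 51 bases before the start of UPOX, 79 before NDB2 and 140 before CYP81D8. A match describes these letters and is not evidence of binding.

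The other 2 tested list members with the motif were not called. NDB2, an alternative NADH dehydrogenase of mitochondria, had 4.39, 4.58 and 4.46 in the libraries labelled anac017, against 4.49, 3.72 and 5.19 in anac090, and the difference was 0.01 (95% interval -0.63 to 0.65). CYP81D8, a stress-induced cytochrome P450, had 3.60, 4.0 and 3.40 in the libraries labelled anac017, against 3.49, 2.99 and 4.35 in anac090 (0.06, interval -0.59 to 0.70). In both, the libraries labelled anac017 fell between anac090 replicates 2 and 3. These intervals are wide, and neither contains the difference of UPOX.

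Over the mitochondrial list, 1 of 13 tested members was called and 6 of 13 had groups that did not overlap, all with anac017 higher, beside 1.31% and 9.53% of all genes. The 13 averaged 3.81 ± 0.10 in the libraries labelled anac017, 3.41 ± 0.29 in anac090 and 2.81 ± 0.07 in wild type. The median difference was 0.24, and 0.44 without anac090 replicate 3, when NAC13, a NAC factor of the same response, was called as well (adjusted p = 0.0294, against 0.217 with all libraries). UGT74E2, which glucosylates the auxin indole-3-butyric acid, had 1.67, 2.77 and 2.19 in the libraries labelled anac017, against 0.74, 0.84 and 1.3 in anac090, and missed the threshold (1.25 ± 0.27, adjusted p = 0.0534, with 0.0465 under the replicate block and 0.0422 without anac017 replicate 1). The sulfotransferase SOT12 (0.43 ± 0.12, adjusted p = 0.120) and the auxin transporter ABCB4 (0.59 ± 0.18, adjusted p = 0.178) were not called, nor was AOX1A, the alternative oxidase and standard marker of the response (-0.22, 95% interval -0.59 to 0.14).

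**Figure D4:**
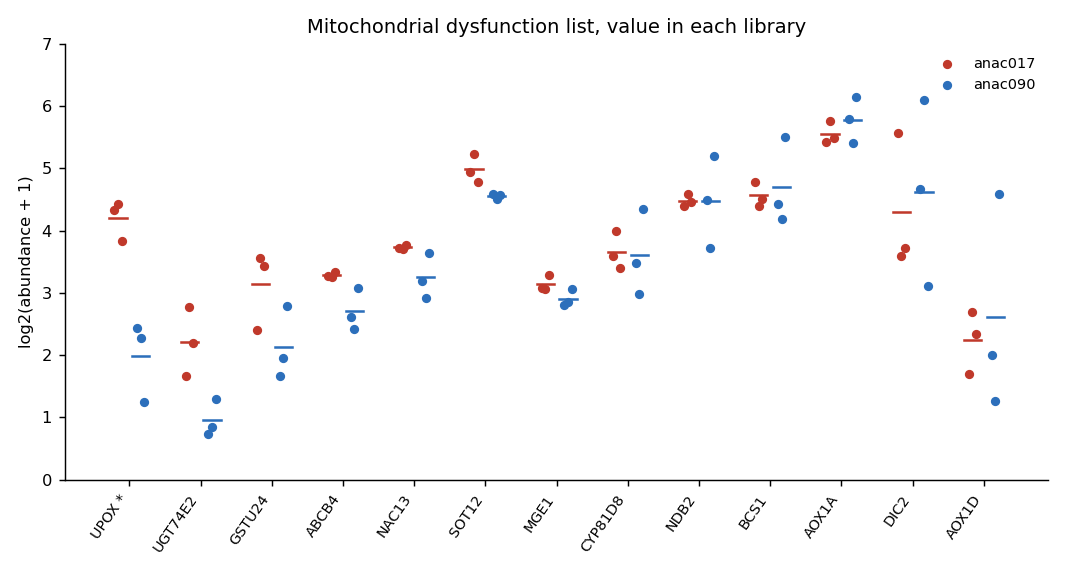
Value of the 13 tested members of the mitochondrial dysfunction list in each library (y axis, log2(abundance + 1)), ordered by difference, with anac017 in red to the left of anac090 in blue and bars at the group means. The star marks UPOX, the called member; from CYP81D8 rightwards the anac090 libraries span the anac017 values.

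Immune receptors and calcium sensors stood among the 29 lower genes. DAR5, which joins a LIM domain to the domains of an immune receptor, had 2.35, 2.01 and 2.18 in the libraries labelled anac017, against 3.30, 3.21 and 3.66 in anac090, and the difference was -1.21 ± 0.15 (adjusted p = 0.0029). The receptor gene AT1G63750 had 2.93, 2.58 and 2.79 in the libraries labelled anac017, against 3.39, 3.66 and 3.59 in anac090 (-0.78 ± 0.11, adjusted p = 0.0066). Both calls held whichever library was left out.

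RPM1, the receptor for modification of RIN4 by bacterial effectors, had 2.59, 2.73 and 2.58 in the libraries labelled anac017, against 3.08, 3.24 and 3.17 in anac090 (-0.53 ± 0.09, adjusted p = 0.0165, and 0.0874 and 0.0781 without anac017 replicates 1 and 3). RPP4, a receptor for downy mildew, had 5.94, 5.96 and 6.14 in the libraries labelled anac017, against 6.48, 6.43 and 6.72 in anac090 (-0.53 ± 0.11, adjusted p = 0.0373, above 0.05 in 9 of 12 leave-one-out fits and at most 0.155). In each receptor the groups did not overlap. This class and that of calmodulins below were picked after the values were seen. Of 102 tested genes described as disease resistance proteins 3 were lower and 1 higher, beside 0.172% and 1.31% of all genes. Their median was -0.20, and -0.08 without anac090 replicate 3. In 21 the groups did not overlap with anac017 lower, beside 6.89% of all genes. The higher one was CW9 (0.65 ± 0.12, adjusted p = 0.0307, above 0.05 in 8 of 12 leave-one-out fits, at most 0.123). The 3 lower genes became 1 without anac017 replicate 1 or 3, and 5 with the replicate block.

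Of 39 calmodulins and calmodulin-like proteins, which bind calcium and pass the signal on, 2 were lower and none higher, beside 0.172% and 1.31% of all genes, with a median of -0.38 that was -0.13 without anac090 replicate 3. CML36, an activator of a plasma membrane calcium pump, had 1.83, 1.34 and 1.22 in the libraries labelled anac017, against 3.30, 2.78 and 2.80 in anac090, and the difference was -1.5 ± 0.23 (adjusted p = 0.00999, and 0.0529 and 0.0519 without anac017 replicates 2 and 3). The calmodulin gene CAM2, which overlaps another entry, averaged 5.49 ± 0.15 in the libraries labelled anac017 and 6.24 ± 0.35 in anac090 (adjusted p = 0.0483). ACA11, a calcium pump of the vacuole, averaged 5.28 ± 0.06 in the libraries labelled anac017 and 5.89 ± 0.11 in anac090 (adjusted p = 0.0236). CAM2 was above 0.05 in 11 of the 12 leave-one-out fits, at most 0.199, and ACA11 without any replicate of anac017 (0.103, 0.102 and 0.0679) or replicate 1 or 3 of anac090 (0.0737 and 0.0635). The 2 lower genes of the 39 became 4 without anac090 replicate 2, 5 with the replicate block, 0 without anac017 replicate 2 or 3, and 1 without any other library.

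The remaining lower genes were of many kinds. AT2G23120, a late embryogenesis abundant protein, was the most abundant of them, with 7.49, 7.33 and 7.35 in the libraries labelled anac017, against 8.32, 8.31 and 8.30 in anac090 (-0.92 ± 0.10, adjusted p = 0.0018). CRSP, a secreted protease that processes a stomatal development peptide, had 2.00, 2.39 and 2.56 in the libraries labelled anac017, against 3.50, 3.35 and 3.62 in anac090 (-1.17 ± 0.15, adjusted p = 0.0048). Both calls held whichever library was left out. CYP94C1, which oxidises the active jasmonate and so turns it off, averaged 1.58 ± 0.19 in the libraries labelled anac017 and 2.67 ± 0.20 in anac090 (adjusted p = 0.0097, and 0.0519 without anac017 replicate 2).

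The largest falls were in transcripts that were low or uneven among libraries. ATP9, a mitochondrion-encoded subunit of ATP synthase, had 2.32, 2.09 and 2.94 in the libraries labelled anac017, against 3.73, 5.17 and 3.91 in anac090 (-1.82 ± 0.36, adjusted p = 0.0322). It was the 1 called of 26 tested mitochondrion-encoded entries, beside 0.172% lower of all genes, and 25 of the 26 differences were negative. In 10 the groups did not overlap with anac017 lower, beside 6.89% of all genes. Their median was -0.84, and -0.34 without anac090 replicate 2. The transcription factor gene BHLH137 had 1.34, 1.22 and 1.38 in the libraries labelled anac017, against 2.85, 3.98 and 2.44 in anac090 (-1.77 ± 0.36, adjusted p = 0.0383, and 0.0555 with the replicate block). The auxin-responsive SAUR gene AT2G21220 was listed at 0 in all 3 libraries labelled anac017, against 2.16, 1.82 and 1.14 in anac090 (adjusted p = 0.0434). ATP9 was above 0.05 in 7, BHLH137 in 8 and AT2G21220 in 9 of the 12 leave-one-out fits, at most 0.145.

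Among kinase and membrane genes, the kinases AT4G25390, SD31 and AT5G38240 had differences of -0.77, -0.54 and -0.81 (adjusted p = 0.0399, 0.0284 and 0.0190). The matrix metalloprotease AT1G24140, the WD40 protein AT1G24530, the hydroxyproline-rich protein AT2G27260 and FRL4B, of the FRIGIDA family of flowering regulators, had differences of -0.89, -1.06, -0.50 and -0.36 (adjusted p between 0.0218 and 0.0452). AT4G35985, annotated to senescence and dehydration, differed by -0.76 ± 0.14 (adjusted p = 0.0236). The other 8 were genes with little or no annotation, AT1G61260, AT2G07774, AT2G07811, AT2G34655, AT3G19550, AT4G23880 and AT5G42146 besides the noncoding AT2G14878, with differences between -1.14 and -0.50. AT2G07774, which overlaps another entry, missed the threshold with the replicate block (adjusted p = 0.0540). Of these 16 genes each was above 0.05 in 2 to 11 of the 12 leave-one-out fits, at most 0.170.

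The SA lists had no called member, beside 1.48% of all genes called. A related gene outside them, NIMIN-3, was called. SA is made from chorismate by isochorismate synthase (ICS1) and its partners under the regulators EDS1, PAD4 and CBP60G, and is read by NPR proteins that turn on PR genes. None of 13 synthesis genes, 15 response genes, 4 breakdown genes and 3 genes of N-hydroxypipecolic acid, the mobile signal of systemic resistance, passed the threshold with limma, with or without the replicate block. ICS1 had 5.19, 5.45 and 5.50 in the libraries labelled anac017, against 5.51, 4.85 and 6.81 in anac090 (-0.34, 95% interval -1.37 to 0.69). The defence protein gene PR1 had 8.67, 9.11 and 9.91 in the libraries labelled anac017, against 10.22, 8.93 and 11.35 in anac090 (-0.93, interval -2.67 to 0.81). FMO1, which makes N-hydroxypipecolic acid, had 1.90, 2.97 and 2.29 in the libraries labelled anac017, against 2.37, 1.34 and 5.53 in anac090 (-0.69, interval -2.63 to 1.25). In all 3 genes anac090 replicate 3 was the highest of the 6 libraries and replicate 2 the lowest of anac090, and the groups overlapped.

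SA response genes averaged 5.27, 5.55 and 5.48 in the libraries labelled anac017, against 5.77, 5.12 and 6.74 in anac090. Their median difference was -0.55, with 13 of 15 negative, and it was -0.06 without anac090 replicate 3 and -0.92 without anac090 replicate 2. For synthesis genes the median was -0.29, and it turned to 0.20 without anac090 replicate 3 and was -0.60 without replicate 2. The N-hydroxypipecolic acid genes had a median of -0.69, which turned to 0.20 without replicate 3 and was -1.37 without replicate 2. The sign of the synthesis and N-hydroxypipecolic acid medians thus rested on anac090 replicate 3. The response gene with the smallest p was WRKY18, a factor of defence, with 4.96, 5.05 and 4.93 in the libraries labelled anac017, against 5.69, 5.58 and 7.0 in anac090. The groups did not overlap, and its difference of -1.11 ± 0.32 was not called (adjusted p = 0.149). PAL2, of phenylpropanoid synthesis, was the synthesis gene with the smallest p (0.55 ± 0.14, adjusted p = 0.0906, and 0.0478 without wild type replicate 3). NIMIN-3, which encodes a protein that binds the SA receptor NPR1 and was singled out after its values were seen, had 5.56, 5.58 and 5.27 in the libraries labelled anac017, against 5.02, 5.0 and 4.70 in anac090. The groups did not overlap, and it was higher by 0.56 ± 0.12 (adjusted p = 0.0440, above 0.05 in 11 of 12 leave-one-out fits and at most 0.190).

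**Figure D5:**
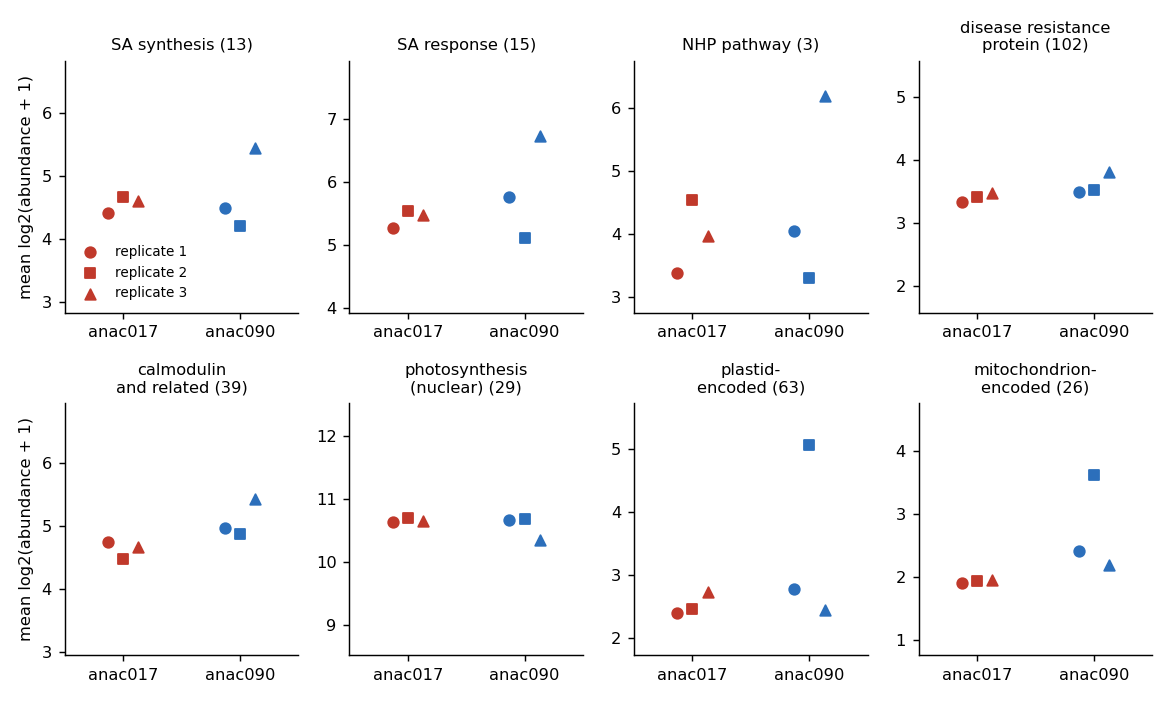
Mean log2(abundance + 1) of the tested members of 8 gene groups in each library (y axes), anac017 in red to the left of anac090 in blue, with the number of members in brackets and a marker for each replicate. In the salicylic acid (SA) and N-hydroxypipecolic acid (NHP) panels anac090 replicate 3 is the highest library and replicate 2 the lowest of anac090; in the plastid-encoded panel replicate 2 is the highest.

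Genes of reactive oxygen species (ROS) were not called, beside 1.48% of all genes called. In the list of ROS and stress regulators none of 16 was called and 14 were negative, with a median of -0.33 that was -0.11 without anac090 replicate 3. RBOHF and RBOHD, the NADPH oxidases that make superoxide at the cell surface, had groups that did not overlap. RBOHF had 2.47, 2.59 and 2.73 in the libraries labelled anac017, against 3.02, 2.95 and 3.63 in anac090 (-0.61 ± 0.18, adjusted p = 0.173). RBOHD had 5.10, 4.86 and 4.77 in the libraries labelled anac017, against 5.18, 5.15 and 5.24 in anac090 (-0.28 ± 0.10, adjusted p = 0.242). The zinc finger factor ZAT7 differed by -1.22 ± 0.39 (adjusted p = 0.204). None of 11 scavenging enzymes was called, with a median of 0.12 that was -0.09 without anac090 replicate 2.

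Senescence and NAC genes had no called member, beside 1.48% of all genes called. None of 13 senescence genes was called, with a median of 0.17 that was 0.36 without anac090 replicate 3. DIN10, a dark-inducible raffinose synthase gene, was not called with all libraries (0.71, adjusted p = 0.374) and was without anac090 replicate 2 (adjusted p = 0.0189). With all libraries the nitrogen-recycling glutamine synthetase GLN1;4 had the smallest p, with 6.28, 5.65 and 6.16 in the libraries labelled anac017, against 5.54, 4.93 and 5.27 in anac090 (0.78 ± 0.24, adjusted p = 0.175). SEN1, a dark-inducible senescence gene, differed by 0.79 ± 0.32 (adjusted p = 0.335). Of 21 other NAC factors none was called, and NAC036 (-0.98 ± 0.27, adjusted p = 0.125, and 0.0304 without anac090 replicate 2) and ORS1, a positive regulator of senescence (0.57 ± 0.18, adjusted p = 0.201), had opposite signs with groups that did not overlap. Chlorophyll breakdown had 0 of 10 called and chlorophyll synthesis 0 of 14. CAO, which makes chlorophyll b, averaged 7.76 ± 0.17 in the libraries labelled anac017 and 7.27 ± 0.10 in anac090 (adjusted p = 0.0720, and 0.0059 with the replicate block).

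Over all 35 lists, 378 members were tested and 3 were called, all higher, beside 1.31% higher and 0.172% lower of all genes. At these shares a single list would be likely to hold no call, so a list without a call says little. Besides UPOX these were CYP79B3, which commits tryptophan to indole glucosinolates, and the heat-inducible immunophilin ROF2. CYP79B3 had 6.32, 6.23 and 5.94 in the libraries labelled anac017, against 5.72, 5.23 and 5.24 in anac090 (0.76 ± 0.15, adjusted p = 0.0366, above 0.05 in 10 of 12 leave-one-out fits, at most 0.153). ROF2 had 2.07, 2.18 and 2.1 in the libraries labelled anac017, against 1.36, 1.5 and 1.44 in anac090 (0.68 ± 0.12, adjusted p = 0.0174, and at most 0.0866 in the 4 leave-one-out fits that lost it, those without anac090 replicate 1 or any replicate of anac017). Both groups were clear of each other in each gene. No gene was called in the jasmonate, ethylene, abscisic acid, cytokinin, growth, clock, photosynthesis, anthocyanin, aliphatic glucosinolate, ribosome assembly, protein folding, pattern receptor, tubulin or sugar transport lists. All 9 tested anthocyanin genes nonetheless had a positive difference, with a median of 0.69 that was 0.58 without anac090 replicate 3. All 10 pattern receptors had a negative one, with a median of -0.30 that was -0.08 without that library. In the jasmonate list 5 of 17 members had groups that did not overlap with anac017 lower, beside 6.89% of all genes, among them JAZ1 (-0.72 ± 0.25, adjusted p = 0.242) and MYC2 (-0.33 ± 0.13, adjusted p = 0.301), a repressor and an activator of the hormone's response. The list as a whole was not shifted, with 9 positive and 8 negative differences and a median of 0.001.

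Markers of leaf cell types did not pass the threshold. The groups did not overlap in the summed abundance of 9 guard cell markers, which ranged from 38.9 to 43.1 in the libraries labelled anac017 and from 45.4 to 48.0 in anac090, and no marker was listed at 0 in all 6 libraries. For 7 epidermal markers it ranged from 142 to 205 in the libraries labelled anac017 and from 85.9 to 243 in anac090, with replicate 2 of anac090 the highest and replicate 3 the lowest. For 10 vascular markers the range was 344 to 407 in the libraries labelled anac017 and 313 to 420 in anac090. Among 5 root markers, of which 2 were listed at 0 in all 6 libraries, it was 11.99 to 12.46 in the libraries labelled anac017 and 12.98 to 16.45 in anac090. The part of cell composition in the results above was not tested.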

How the data were processed

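Poly(A) RNA from leaves was sequenced from strand-specific libraries, per the labels' protocols. CASAVA 1.8.2, TopHat, Cufflinks and the TAIR10 build are named in the submitters' processing notes. No source used here says whether strand was used in counting, so overlapping and antisense entries are uncertain. The deposited table holds log2 values of an abundance with 1 added, and the authors' scale and normalization are not stated; at each rank the 12 libraries lie within 0.082 of each other, so they share a common distribution. No counts are given, so the depth is unknown.

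Of 33726 entries, 529 had no gene identifier and were left out. Genes with a mean abundance of at least 1 were fitted with limma 3.58.1 in R 4.3.3, with a trend in the variance, as 4 groups of 3 libraries, so wild type and anac082 add to the estimate of spread. P-values were adjusted by Benjamini-Hochberg over 16817 genes, 95% intervals are not adjusted, and the procedure was tested on simulated data. Those data had the same spread in all 12 libraries for a gene, so they do not cover the uneven anac090 libraries. Nothing in the labels says that replicates were separate plants: the p-values reflect only how far these samples spread, and that spread may be technical. The replicate numbers were taken from the labels, and deviations from the group means correlated at 0.39, 0.241 and 0.384 between libraries of the 2 lines with the same number, and at -0.307 to 0.0323 otherwise. Such deviations cancel out within a group, so positive values for some pairs force negative ones for others. The contrast between the 2 kinds of pair is therefore partly built in. Both fits, with and without the replicate number as a block, were made.

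Genes named besides those of the classes were the targeted genes, the 12 largest rises among called genes above the median level, all called falls, and up to 4 members of a list with the smallest p; the rest were chosen after their values were seen. The genes, lists and classes were chosen with earlier results of these data known. Some genes are not reported here. Overlaps, gene types and promoters came from RefSeq's TAIR10.1 annotation and the table's coordinates. Alternatives were another pseudocount, filter, scaling, threshold or variance model, library weights, the 6 libraries alone, each library left out, and nuclear genes alone, the last added after seeing the data.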

Additional observations from a re-analysis of the deposited data

How the results depend on the processing

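More genes were higher than lower in anac017 under every alternative run. The 220 higher and 29 lower genes became 71 to 217 and 6 to 50 when 1 library was left out, lowest for the higher genes without anac017 replicate 1 and for the lower genes without anac017 replicate 3. A fit of the 6 libraries alone called 12 and 1. With library weights, which gave anac090 replicate 1 a weight of 28.2 against 0.23 and 0.132 for its replicates 2 and 3, the counts were 1997 and 1871. A threshold of 0.01 left 71 and 6. The pairing by replicate number, fitted as a replicate block, gave 319 and 66. Other pseudocounts, filters, scalings, variance models and nuclear genes alone gave 196 to 239 and 24 to 36, and no scaling shifted the values of any library by more than 0.033. The cause of these changes was not tested, apart from the fewer libraries or stricter threshold by construction. Leaving out anac082 replicate 1 and anac090 replicate 3 together gave 197 and 41, with anac090 replicate 2 kept. Of the values of single genes under alternatives, 2718 stayed on their side of the threshold, 504 lost a call, 41 gained one and none changed direction while called; of list medians 721 stayed within the spread between replicates and 14 moved. The block changed no call of a gene named in the text other than those given beside it. Depth is unknown, so no limit of detection was set.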
